A study of Mus musculus with 12 samples.

Results

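Tensins are adaptor proteins of focal adhesions, the sites where integrins tie the cell to its matrix. Their shared carboxy-terminal SH2 and PTB domains bind signalling proteins and the cytoplasmic tails of beta integrins. Tns1, Tns2 and Tns3 also carry an amino-terminal part that binds actin, which Tns4 (also called cten) lacks. Tns4 is known from a narrow range of epithelia and from carcinomas, and in mammary epithelial cells EGF has been described to raise Tns4 and lower Tns3. The genes described here are Tns1, Tns3 and Tns4, 3 of the 23337 gene symbols counted. They were taken by name, and the set was chosen by the counts of Tns4, which fell strongly and evenly with quiescence. The fourth family gene, Tns2, stands in the count table under its older symbol Tenc1 and is given as a relative, not as one of the 3.

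The counts come from 12 RNA sequencing libraries of NU1, a line of mouse urothelial cells that became immortal through serial passaging. All cells grew in medium with 15% serum and EGF at 5 ng/ml. Proliferating cells carried either a non-targeting hairpin (shNT, labelled WT) or the hairpin sh4 against the cohesin gene Stag2 (labelled Stag2-KD), delivered by lentivirus. Quiescent cells carried the same hairpins, were grown to confluence, then received 1 µM rosiglitazone with 0.5 µM erlotinib, and were labelled differentiation day 7. Erlotinib inhibits the kinase of the EGF receptor and rosiglitazone activates PPAR gamma, so confluence, each drug and quiescence itself cannot be told apart in the contrast between states. Each of the 4 groups has 3 libraries, from experiments 5, 7 and 9, each a batch of its own in the labels that holds all 4 groups. The labels do not say whether the experiments used separate infections, so p-values measure the spread between experiments. Where the experiment was fitted as a block, they measure how much the differences within experiments varied. A single targeting hairpin was used.

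Library totals ran from 14524429 to 21987539 counts. Stag2 was between 107.5 and 145.5 CPM (counts divided by scaled library size) in control libraries. With knockdown it was between 24.6 and 33.3 CPM in proliferating and between 9.43 and 15.3 CPM in quiescent libraries. The fitted level was 20.9% of control in proliferating and 10.0% in quiescent cells, so knockdown effects in the states come from unlike levels of Stag2. Markers of the labelled cell type were mixed. The 7 epithelial markers summed to 12950 to 24950 CPM. Krt20, a superficial urothelial keratin, was lower in the libraries labelled as differentiated, with 1059 to 1738 CPM in proliferating and 534 to 875 CPM in quiescent libraries. Gata3 had 29.9, 27.5 and 26.5 CPM in proliferating and 72.5, 41.4 and 118 CPM in quiescent controls of experiments 5, 7 and 9. Foxa1 had 35.4, 17.6 and 9.49 CPM, then 84.8, 33.8 and 42.4 CPM, so both were higher in quiescent controls. With knockdown Foxa1 was also higher in each experiment, and Gata3 in experiments 5 and 9 but not 7 (31.3 against 30.5 CPM). Krt5, Krt14 and Grhl3 reached at most 6.60, 10.6 and 2.64 CPM. Krt5 and Krt14 were lower in each quiescent library than in any proliferating one. The basal regulator Trp63 was at 0 in all 12 libraries, and the uroplakins Upk1a, Upk1b, Upk2 and Upk3a each stayed under 4 CPM. Markers of fibroblasts summed to at most 2.27 CPM over 8 genes, those of smooth muscle to at most 0.775 CPM over 5 and those of endothelium to at most 0.238 CPM over 4. The 4 immune markers summed to at most 9.42 CPM, nearly all from Cd68, with Cd3e at 0 throughout.

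Tns4 lies on the minus strand of chromosome 11 (GRCm38, 99065678 to 99089306), where the GENCODE M21 annotation gives it 13 merged exons and 5167 exonic bases. Its level in proliferating control cells was 308, 343 and 294 CPM in experiments 5, 7 and 9. In proliferating knockdown cells it was 277, 265 and 318 CPM. Quiescent control cells had 31.8, 16.2 and 19.7 CPM, and quiescent knockdown cells 22.2, 23.7 and 24.8 CPM. Each quiescent library was thus far below each proliferating library, and the lowest proliferating value lay above 264 CPM while the highest quiescent value was under 32 CPM.

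The fall of Tns4 is the measure by which the genes were chosen, so it is described and not tested. Control cells averaged 315 ± 25.2 CPM (SD, n = 3) when proliferating and 22.6 ± 8.18 CPM (SD, n = 3) when quiescent. The fitted log2 fold change was -3.80 (SE 0.22), which leaves 7.17% of the proliferating level. Knockdown cells averaged 287 ± 28.1 CPM (SD, n = 3) and 23.6 ± 1.29 CPM (SD, n = 3), with a fitted value of -3.60 (SE 0.22), which leaves 8.22%. Ranked from the lowest fold change over the 12406 tested genes, Tns4 stood at place 150 in control cells and at place 57 in knockdown cells. Within experiments 5, 7 and 9 the control level was 9.64, 20.99 and 14.8 times lower in quiescent cells, and the knockdown level 12.4, 11.1 and 12.8 times lower. The fall was therefore more even among the knockdown pairs (SD of the log2 differences 0.11, n = 3) than among the control pairs (SD 0.56, n = 3), a difference that was not tested. The spread in controls came from the quiescent side, where the highest library held 1.96 times the lowest, against 1.17 times among proliferating controls.

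**Figure D1:**
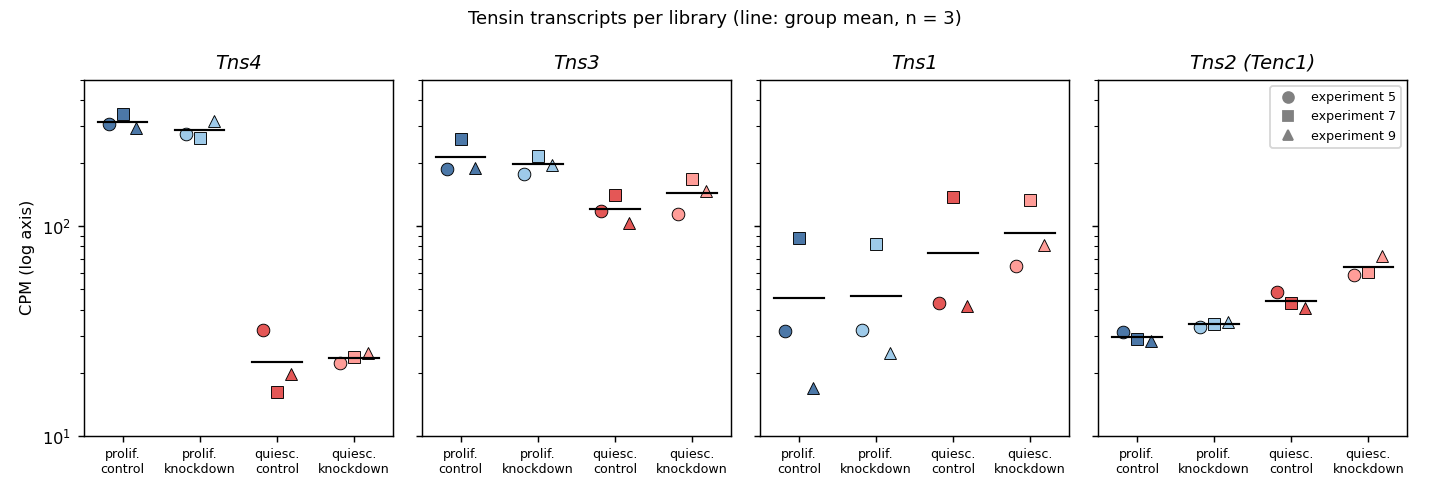
Level of each tensin gene in CPM (log axis) in the 12 libraries, by group on the x axis, with a symbol per experiment and a line at the group mean (n = 3). Tns4 separates into proliferating libraries above 264 CPM and quiescent libraries under 32 CPM, while Tns1 is highest in experiment 7 in every group.

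Tns3 encodes a widely expressed tensin that binds actin. Its gene spans 232884 bases of the minus strand of chromosome 11 (GRCm38, 8431652 to 8664535) with 32 merged exons. Proliferating control cells had 187 CPM in experiment 5, 261 in experiment 7 and 190 in experiment 9. Proliferating knockdown cells had 177, 217 and 196 CPM in the same order. The level was 118, 141 and 104 CPM in quiescent control cells and 114, 168 and 148 CPM in quiescent knockdown cells. The quiescent and proliferating libraries did not overlap within either hairpin, but the gap was narrow beside that of Tns4.

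As this is the contrast used in the choice, the Tns3 values between states are also given without a test. The log2 fold change was -0.82 (SE 0.18) in control cells, which leaves 56.7% of the proliferating level, and -0.46 (SE 0.18) in knockdown cells, which leaves 72.8%. Within experiments 5, 7 and 9 the log2 differences were -0.67, -0.89 and -0.87 in control cells and -0.63, -0.37 and -0.41 in knockdown cells. Quiescent groups that lay wholly below the proliferating groups were common, with 18.5% of all tested genes in control cells and 19.1% in knockdown cells, and Tns3 and Tns4 were among these in both.

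Tns1, which encodes a tensin best known from fibroblasts and muscle, went the other way. It lies on the minus strand of chromosome 1 (GRCm38, 73910231 to 74124449), with 43 merged exons and 22 annotated transcripts. Proliferating control libraries had 31.7, 88.3 and 16.9 CPM in experiments 5, 7 and 9, and proliferating knockdown libraries 31.9, 81.9 and 24.9 CPM. Quiescent control libraries had 43.1, 138 and 41.6 CPM, and quiescent knockdown libraries 64.6, 133 and 81.0 CPM. Experiment 7 gave the highest level in each of the 4 groups, and all groups overlapped. The highest library of a group held between 2.06 and 5.21 times the lowest, against at most 1.47 times for Tns3.

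Within each experiment Tns1 was higher in quiescent than in proliferating cells, in all 6 pairs. The log2 differences were 0.44, 0.64 and 1.29 in control cells of experiments 5, 7 and 9, and 1.01, 0.699 and 1.70 in knockdown cells. The fitted log2 fold changes were 0.70 (SE 0.66) and 1.01 (SE 0.66), and with the experiment as a block they were 0.75 (SE 0.24) and 1.18 (SE 0.24), again with no test. Without the block, the value in control cells moved when only 1 library of the experiment 7 pair was left out, to -0.098 without its quiescent and 1.61 without its proliferating control library. With experiment 7 left out of all 4 groups it was 0.80. Markers of fibroblasts were not highest in experiment 7 in any group. In proliferating controls they summed to 0.577 CPM in experiment 7, the library with most Tns1 among these, and to 1.68 and 2.27 CPM in experiments 5 and 9. Col1a2, Col3a1 and Lum were at 0 in all 12 libraries. Markers of smooth muscle were highest in experiment 7 in both knockdown groups (0.358 CPM proliferating, 0.775 CPM quiescent) and not in the control groups. In proliferating knockdown cells experiment 9 was close, at 0.344 CPM. These sums are near the floor, with 4 reads for Actg2 to 47 for Acta2 over all 12 libraries, so their order says little. The part of either cell type in the Tns1 levels was not tested.

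Tns2, the actin-binding tensin read here from the row Tenc1, is a list gene and was tested. It had 31.3, 28.8 and 28.2 CPM in proliferating controls and 48.4, 43.0 and 40.7 CPM in quiescent controls. The quiescent libraries all lay above the proliferating ones with either hairpin, as did those of 17.1% of all genes in control and 18.1% in knockdown cells. It rose with quiescence in control cells (log2 fold change 0.58, SE 0.12, edgeR adjusted p 0.00554) and in knockdown cells (0.90, SE 0.12, edgeR adjusted p 0.000821). In control cells the adjusted p was 0.117 with experiment 7 left out, at a log2 fold change of 0.58.

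**Figure D2:**
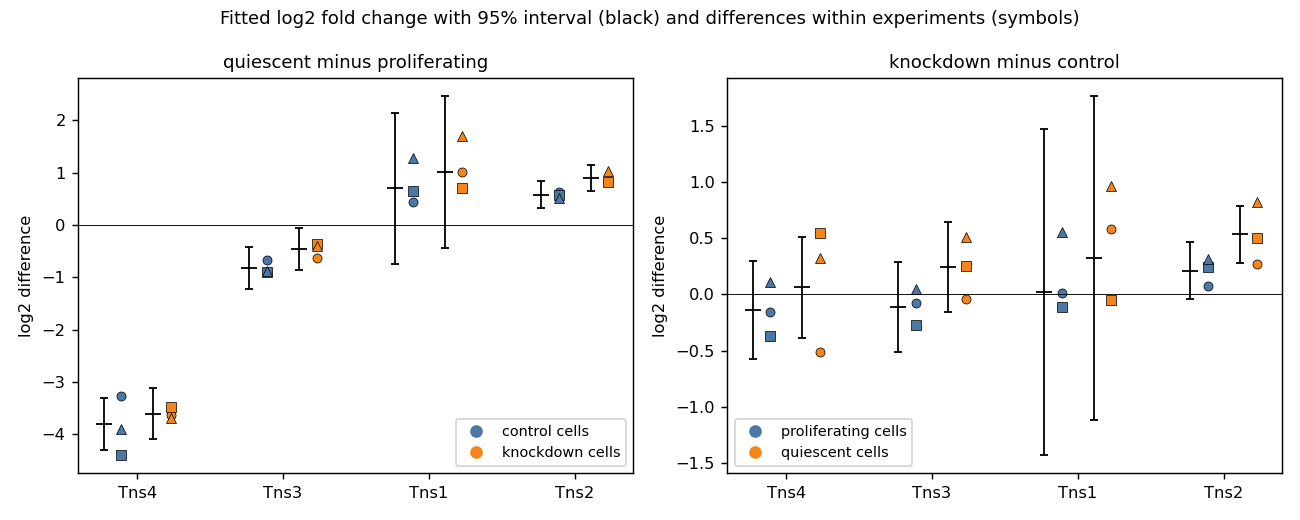
Log2 difference for each tensin, quiescent minus proliferating (left) and knockdown minus control (right): black marks give the fitted value with its 95% interval, and symbols the differences within experiments 5 (circle), 7 (square) and 9 (triangle). Tns4 is near -3.8 and -3.6 on the left, while the intervals of Tns1, Tns3 and Tns4 on the right all include 0.

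Levels of different genes were compared per length, as CPM per kilobase of exonic sequence. In proliferating control cells Tns4 stood highest at 60.9 ± 4.87 CPM per kb (SD, n = 3), followed by Tns3 at 19.0 ± 3.76 (SD, n = 3), Tns2 at 5.40 ± 0.299 (SD, n = 3) and Tns1 at 2.85 ± 2.35 (SD, n = 3). The ranges of Tns2 and Tns1 overlapped there and the others did not. In quiescent control cells the order was Tns3 at 10.8 ± 1.67 CPM per kb (SD, n = 3), Tns2 at 8.07 ± 0.721 (SD, n = 3), Tns1 at 4.63 ± 3.44 (SD, n = 3) and Tns4 at 4.37 ± 1.58 (SD, n = 3). Tns4 thus went from the first place to the last 2, where its range overlapped that of Tns1. Its level was above that of Tns1 in quiescent controls of experiment 5 (6.16 against 2.69 CPM per kb) and experiment 9 (3.82 against 2.60), and only experiment 7 (3.14 against 8.61) put its mean below. Tns1 and Tns4 also overlapped in quiescent knockdown cells, where Tns4 was the higher in experiment 5 (4.30 against 4.04). The order of the means was the same in knockdown cells of each state. In quiescent knockdown cells of experiment 5, though, Tns2 was above Tns3 (10.7 against 10.2). In quiescent controls the ranges of Tns1 and Tns2 overlapped, with Tns1 the higher in experiment 7 (8.61 against 7.88). The order of the means also held with the longest transcript as the length, which raised the Tns1 level in quiescent control cells to 7.44 CPM per kb. By that length Tns1 was above Tns4 in all 3 quiescent knockdown libraries. It was also above Tns4 in quiescent controls of experiments 7 and 9 (4.171 against 4.151 in experiment 9), but not 5.

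Summed over the 4 genes, tensin transcripts came to 88.2 ± 10.8 CPM per kb (SD, n = 3) in proliferating control cells and 27.9 ± 4.54 (SD, n = 3) in quiescent control cells. With knockdown the sums were 82.2 ± 4.82 (SD, n = 3) and 34.9 ± 5.02 (SD, n = 3). Tns4 made up 69.3% ± 2.86 (SD, n = 3) of this sum in proliferating control cells and 16.0% ± 6.03 (SD, n = 3) in quiescent control cells. In knockdown cells its share was 67.4% ± 4.38 (SD, n = 3) and 13.2% ± 1.47 (SD, n = 3). Tns3 went from 21.5% ± 1.68 (SD, n = 3) to 38.8% ± 1.39 (SD, n = 3) of the sum in control cells, although its own level was lower. These are shares of sequenced RNA, and fewer cells that express a gene cannot be told apart from less RNA per cell.

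**Figure D3:**
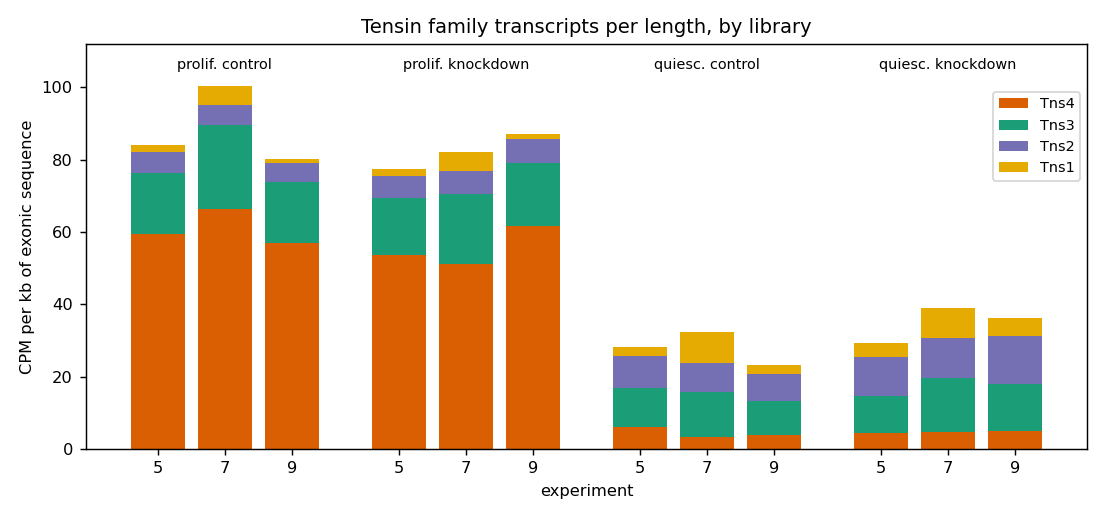
Stacked bars of CPM per kb of exonic sequence for the 4 tensin genes in each library, by experiment and group. The Tns4 block shrinks from 69.3% of the bar on average in proliferating controls to 16.0% in quiescent controls, and the whole bar from 88.2 to 27.9 CPM per kb.

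The ratio of Tns4 to Tns3 counts within a library needs no scaling between libraries. It was 1.64, 1.31 and 1.55 in proliferating controls of experiments 5, 7 and 9 and 1.56, 1.22 and 1.62 in proliferating knockdown cells. In quiescent controls it was 0.270, 0.115 and 0.190, and in quiescent knockdown cells 0.194, 0.141 and 0.168. Tns4 counts exceeded Tns3 counts in all 6 proliferating libraries and in none of the 6 quiescent ones. Experiment 7 had the lowest ratio in each group. Between states the ratio was 6.09, 11.4 and 8.13 times lower in control cells and 8.03, 8.64 and 9.67 times lower in knockdown cells, which again describes the contrast used in the choice.

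The knockdown was tested for this ratio with an exact two-sided permutation test over libraries, where 3 against 3 cannot go below 0.1. That test does not pair libraries by experiment. The mean log2 ratio moved by -0.038 in proliferating cells (exact p 0.7, n = 3 a group) and by -0.12 in quiescent cells (exact p 0.9, n = 3 a group). Within experiments 5, 7 and 9 the differences were -0.074, -0.11 and 0.066 in proliferating cells and -0.47, 0.29 and -0.18 in quiescent cells, so neither state had 1 direction throughout. A paired sign-flip test of these differences, which cannot go below 0.25, gave p 0.5 in proliferating and 0.75 in quiescent cells.

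**Figure D4:**
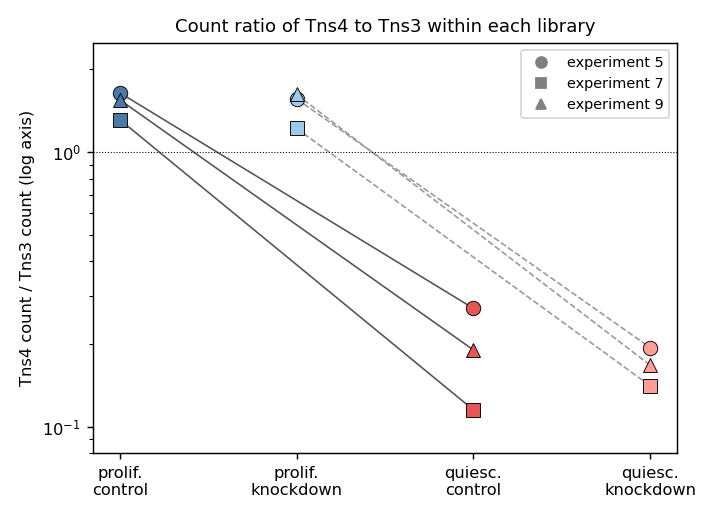
Tns4 count divided by Tns3 count (log axis) in each library by group, with lines joining the states within an experiment (solid for control, dashed for knockdown) and a dotted line at 1. Proliferating libraries lie between 1.22 and 1.64 and quiescent libraries between 0.115 and 0.270.

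The effect of Stag2 loss within a state is another contrast than the fall that chose the genes, and was tested by edgeR over all 12406 genes. For Tns4 the test is not fully independent of the choice, since its fall was also chosen as even. In proliferating cells 0 of the 3 genes passed an adjusted p of 0.05 (0.0242% of all genes did), and 0 had an unadjusted p under 0.05, in edgeR with or without the experiment as a block and in DESeq2. The log2 fold change of Tns4 was -0.14 with a 95% interval from -0.57 to 0.30 (edgeR adjusted p 0.9998). Tns3 had -0.11 with an interval from -0.51 to 0.29, and Tns1 0.020 with an interval from -1.43 to 1.47 (both with an edgeR adjusted p of 0.9998). As multiples of the control level the intervals covered 0.674 to 1.23 for Tns4 and 0.702 to 1.22 for Tns3, but 0.372 to 2.76 for Tns1. These intervals are from the fit without the experiment as a block. With the block the log2 fold change of Tns1 was 0.11 (SE 0.24). The libraries with and without knockdown overlapped for all 3 genes, whereas they did not for 2.66% of all genes in the higher and 2.65% in the lower direction. Tns2 was among the former, with 33.0, 34.1 and 35.1 CPM after knockdown in experiments 5, 7 and 9. Its log2 fold change of 0.21 (SE 0.12) did not pass the test (edgeR adjusted p 0.9998).

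In quiescent cells 0 of the 3 genes passed the threshold after knockdown (0.435% of all genes did, or 3.55% with the block). By unadjusted p under 0.05 there were 0 in edgeR and DESeq2 and 1 with the block, Tns1, where 2527 of the 12406 genes had such a p with the block and 1489 without. The log2 fold change of Tns4 was 0.062 (95% interval -0.39 to 0.51, edgeR adjusted p 0.945), and it was -0.52, 0.54 and 0.33 within experiments 5, 7 and 9. Tns3 had 0.25 (interval -0.15 to 0.65, edgeR adjusted p 0.666), higher in 2 of the 3 experiments. Tns1 had 0.32 (interval -1.11 to 1.76, edgeR adjusted p 0.899), or 0.53 with the block (edgeR adjusted p 0.239), also higher in 2 of the 3. The libraries overlapped for all 3 genes (no overlap in 10.2% of all genes in the higher and 8.85% in the lower direction). Tns2 had 58.5, 60.7 and 72.0 CPM after knockdown, all above the quiescent controls (means 63.7 ± 7.21 against 44.0 ± 3.93 CPM, SD, n = 3 each). Its log2 fold change of 0.53 (SE 0.11) had an edgeR adjusted p of 0.0772 without and 0.0343 with the block, and 0.00212 in DESeq2. It was higher in all 3 experiments.

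The interaction term takes the log2 effect of knockdown in proliferating cells from the effect in quiescent ones. No gene of all 12406 passed it in edgeR (0%). For Tns1, Tns2 and Tns3 no unadjusted p was under 0.05 in edgeR, with the block or in DESeq2. Its value was 0.30 (SE 0.93) for Tns1 and 0.36 (SE 0.26) for Tns3, each with an edgeR adjusted p of 0.9997, and all 3 experiments were positive for both. For Tns4, where evenness was part of the choice, the value of 0.198 (SE 0.29) is a description, and it was -0.36, 0.92 and 0.21 in experiments 5, 7 and 9.

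Genes of the places where tensins act were counted from lists, beside the share of all tested genes that changed with quiescence. That share was 20.0% in control cells (8.33% higher, 11.7% lower), or 35.3% with the block (16.8% higher, 18.5% lower), and 18.4% in knockdown cells (7.59% higher, 10.8% lower), or 33.0% with the block (15.9% higher, 17.2% lower). Of 37 tested focal adhesion genes, 7 rose and 6 fell in control cells, or 35.1% together, with a median log2 fold change of -0.025 (all genes 0.0047). Those that rose included Csrp1, a LIM protein of actin bundles (1.27, SE 0.27, edgeR adjusted p 0.00770), the actin regulator Enah (1.02), Lpp (0.97) and Vcl (0.87), the gene of vinculin. The largest falls were in Parvb and Parva, the parvins that join integrin-linked kinase to actin (-1.21 and -0.69), Ptk2, the gene of focal adhesion kinase (-0.77), and Vasp (-0.66). The fall of Tns4 was larger than that of any focal adhesion gene on the list. As Tns4 was chosen by this fall, that order is a description and carries no test. In knockdown cells 6 rose and 5 fell. With the block 10 focal adhesion genes rose and 9 fell in each.

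Of 11 integrin subunit genes, 2 rose and 2 fell with quiescence in control cells. Itga3, a laminin-binding subunit of epithelial cells, averaged 2035 ± 161 CPM (SD, n = 3) in proliferating and 658 ± 74.9 CPM (SD, n = 3) in quiescent controls, and it fell by 1.63 on the log2 scale (SE 0.18, edgeR adjusted p 0.000210). Itga2 fell as well (-1.26), and Itgb6 and Itgb5 rose (0.99 and 0.79). Itgb1, whose product binds tensins, averaged 1546 ± 431 CPM (SD, n = 3) when proliferating and 1309 ± 237 CPM (SD, n = 3) when quiescent, and did not pass the test (log2 fold change -0.24). In knockdown cells 2 integrin genes rose and 4 fell.

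Among 14 genes of tensin binding partners, 5 fell and 0 rose in control cells by edgeR, with a median log2 fold change of -0.34. With the block 6 fell and 1 rose. The receptor kinase gene Axl had the largest fall (-1.56, SE 0.22, edgeR adjusted p 0.000883). Met, the gene of the hepatocyte growth factor receptor, had -0.73 (SE 0.14, edgeR adjusted p 0.00491), and Ptk2 and Dock5 had -0.77 and -0.76. In knockdown cells 4 of the 14 fell and 0 rose. Stag2 knockdown in proliferating cells moved 0 genes of the 5 lists past the threshold in edgeR, with the block or in DESeq2, with 2 at an unadjusted p under 0.05 in edgeR (228 of all 12406 genes). In quiescent cells it moved 0 focal adhesion genes and 0 integrin genes in edgeR, with 2 of each at an unadjusted p under 0.05, and 0 and 2 in DESeq2. Over all 12406 genes, 1489 had an unadjusted p under 0.05 in edgeR and DESeq2 called 390. Of the 14 partner genes 0 passed in quiescent cells, with 4 at an unadjusted p under 0.05, and 2 passed with the block and 2 in DESeq2. The 2 with the block were Dlc1, whose product tensins bind (log2 fold change -1.11, edgeR adjusted p 0.0238), and Egfr (-0.85, edgeR adjusted p 0.0326). Without it their adjusted p values in edgeR were 0.457 and 0.0981.

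Of 18 tested actomyosin genes and targets of the serum response factor, only Cald1, the gene of caldesmon, passed in control cells (0.70, SE 0.21, edgeR adjusted p 0.0387). With the block 4 rose and 3 fell. In knockdown cells 2 rose and 0 fell in edgeR, or 3 and 1 with the block. After knockdown in quiescent cells 1 gene of this list passed with the block, the myosin light chain gene Myl9, whose group means of 0.458 and 3.82 CPM are low. Of 21 output genes of the EGF receptor and MAPK pathway, 12 fell and 1 rose in control cells (61.9%), with a median of -1.17, and in knockdown cells 11 fell and 1 rose. The largest falls were in the transcription factor genes Fosl1, Etv4 and Etv5 (-3.53, -3.31 and -2.40) and in the ERK phosphatase gene Dusp6 (-2.48). Spry1, the gene of a feedback inhibitor, rose (0.69). Tns4, chosen by its fall in this contrast, lay at -3.80, below all 21. After knockdown in quiescent cells 1 of the 21, the EGF receptor ligand gene Areg, passed (log2 fold change -2.03, SE 0.35, edgeR adjusted p 0.0360), and with the block Emp1 also did.

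**Figure D5:**
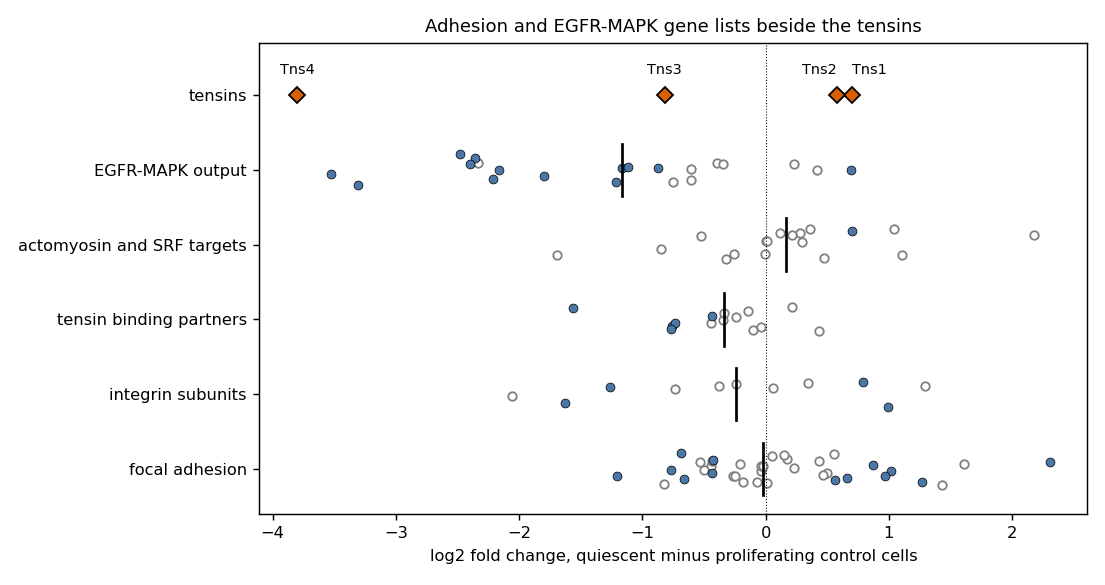
Log2 fold change from proliferating to quiescent control cells for each tested gene of 5 lists and for the tensins (diamonds): filled circles passed an edgeR adjusted p of 0.05, black bars are list medians and the dotted line is the median of all genes. Tns4, chosen by its fall in this contrast, lies at -3.80, left of every listed gene, while Tns1 and Tns2 lie at 0.70 and 0.58.

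The genes most like each tensin were found by Pearson correlation of log2 CPM over the 12 libraries, among the 10300 genes that averaged 2 or more on that scale. The libraries share groups and experiments, so these values describe the pattern and carry no test. Closest to Tns4 were Poc1a, a centriole gene (r = 0.992), the splicing factor gene Srsf1 (0.983), the replication helicase gene Mcm4 (0.983), the condensin gene Smc2 (0.981) and the DNA ligase gene Lig1 (0.980). All 5 were lower in quiescent controls, with log2 fold changes from -2.70 to -1.04, smaller in size than that of Tns4. Poc1a, for example, had group means of 10.9 and 10.7 CPM in proliferating and 2.62 and 2.59 CPM in quiescent cells, control first. The most opposite were the growth factor gene Tgfb2 (r = -0.978), Znf512b (-0.977) and C87436 (-0.977). Tgfb2 rose from 2.58 to 32.4 CPM in control cells.

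Of the 21 EGF receptor and MAPK output genes, 9 had an r with Tns4 above 0.8, or 42.9%, as did 10.5% of all other genes. Fosl1 and Dusp5 stood highest, both at 0.932, and Spry1 lowest at -0.852. The shares were 35.7% of the partner genes, 18.2% of the integrins, among them Itga3 at 0.948, 16.2% of the focal adhesion genes and 5.56% of the actomyosin genes. All these correlations include the difference between states by which Tns4 was chosen. For Tns3 the share of that list was 52.4% against 7.42% of all genes. Closest to Tns3 were the checkpoint kinase gene Atr (r = 0.973), the adaptor gene Sh2b3 (0.966), Ttll4 (0.966), Slc25a37 (0.964) and Zfp948 (0.957). Tns1 was most like the retinoic acid receptor gene Rara (r = 0.940), Prrc1 (0.936), D4Wsu53e (0.932), Emb (0.910) and Lime1 (0.908). Rara had group means from 53.8 to 58.8 CPM, with both quiescent means above both proliferating ones. Among the members themselves r was 0.833 between Tns4 and Tns3, -0.545 between Tns4 and Tns1 and -0.054 between Tns3 and Tns1.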

How the data were processed

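The deposited table holds unnormalized read counts for each gene symbol in each library. Per the submitters' processing notes, Bowtie, TopHat, HTSeq and DESeq2 were used with build mm10; versions, annotation and use of strand are not given in the sources used here. The kit was stranded, per the labels' protocols. In GENCODE M21 no other gene overlaps the exons of the 4 tensins.

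The fits used edgeR 4.0.16 under R 4.3.3: filterByExpr (minimum count 10, 12406 genes kept), TMM scaling, 4 group means fitted to all 12 libraries, glmQLFit and glmQLFTest, and Benjamini-Hochberg adjustment over all tested genes at 0.05. The SE is the absolute log2 fold change over the root of F, and 95% intervals use the fit's t quantile. CPM are TMM-scaled, with a prior count of 2 for their log2. On simulated data for the knockdown in quiescent cells (12293 genes), 63.2% of 2-fold and 91.5% of 4-fold changes were recovered. For the knockdown in proliferating cells (12295 genes) the shares were 55.6% and 94.6%. Genes with low mean counts were not changed, and libraries were drawn independently, with no shared experiment effect.

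Deviations from group means correlated between libraries of the same experiment (18 pairs, r 0.225 to 0.789), so experiment numbers, which the labels also give as batches, pair the samples. Alternatives were this replicate block, median-of-ratios size factors, DESeq2 1.42.0, 2 other count filters, a fit to only the contrast's libraries, each library left out, and another length. Genes named are the tensins, Stag2, the listed genes with the largest changes past the threshold (4 each way in control cells with quiescence, mean log2 CPM of at least 2), those past it after knockdown, and the closest correlates. Itgb1, Trp63, the marker genes and Rara's means were singled out beside that rule. The members and lists were chosen with earlier results of these data known. No sequence is printed.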

Additional observations from a re-analysis of the deposited data

How the results depend on the processing

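The replicate block moved the counts of genes past the threshold to 440 for knockdown in quiescent cells (54 without it), 4374 for quiescence in control cells (2481) and 4096 for quiescence in knockdown cells (2279). It left the counts for knockdown in proliferating cells (3) and for the interaction (0) as they were. DESeq2 gave 12 genes for knockdown in proliferating cells, 390 in quiescent cells and 6 for the interaction, against 3, 54 and 0 in edgeR. With only the contrast's own libraries fitted, there were 1 gene for knockdown in proliferating cells and 1582 genes for quiescence in control cells. With experiment 7 left out of all 4 groups, an alternative chosen after seeing the data, the counts were 0 and 1 for knockdown in proliferating and quiescent cells and 592 and 701 for quiescence in control and knockdown cells, where fewer libraries were fitted. Tns4 then had -0.13 for knockdown in quiescent cells and -0.12 for the interaction, opposite in sign to the values with all libraries.

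Leaving out 1 library at a time gave 1 to 3, 5 to 64, 1394 to 3078 and 1186 to 2408 genes for the knockdown (proliferating, then quiescent cells) and for quiescence (control, then knockdown cells). For Tns1 the log2 fold changes of these contrasts ran from -0.68 to 0.93, -0.023 to 1.13, -0.098 to 1.61 and 0.66 to 1.71, and its interaction from -0.60 to 1.11. Tns3 ran from -0.20 to 0.062 for knockdown in proliferating cells and from -0.93 to -0.64 for quiescence in control cells. Tns4 ran from -0.13 to 0.38 for knockdown in quiescent cells and from -4.12 to -3.60 for quiescence in control cells. The log2 ratio of Tns4 to Tns3 moved with knockdown by -0.13 to 0.090 in proliferating and by -0.45 to 0.17 in quiescent cells. The fall of Tns4 and that of Tns3 with quiescence kept their sign under all alternatives run, while the knockdown values whose ranges here include 0 changed sign with single libraries. The cause was not tested. For Tns2 after knockdown in quiescent cells the block and DESeq2 ended on the other side of the threshold (adjusted p 0.0343 and 0.00212 against 0.0772 in edgeR). Among the tested contrasts of the tensins (knockdown, the interaction except for Tns4, and quiescence for Tns2) the block changed no other call. The quiescence values of Tns1, Tns3 and Tns4 and the interaction of Tns4 were not tested, with or without it.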
